A study of Mus musculus with 29 samples.

Results

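Of 11959 genes measured by RNA sequencing in differentiating 3T3-L1 cells, 78 had lower counts in C70-treated than in vehicle-treated cells at day 2 and higher counts at day 7. These 78 genes were chosen by their values at those days: the mean CPM (counts of a gene per 1000000 counts of its library) of the C70 libraries was 0.8 times the vehicle mean or less at day 2 and 1.25 times or more at day 7, and the mean CPM over all 29 libraries was 2 or more. 3T3-L1 cells are mouse fibroblasts that can be turned into white adipocytes in culture. C70 is KDM5-C70, an inhibitor of the KDM5 histone demethylases, which remove methyl groups from lysine 4 of histone H3. All cells were grown to confluence at day -2 and moved at day 0 to a medium with dexamethasone, insulin, isobutylmethylxanthine and a PPARγ agonist, and after day 2 to a medium with insulin and dexamethasone. The C70 groups received 10 µM C70 from day -2 to day 0 and the vehicle groups received DMSO. Vehicle groups held 3 libraries (4 at day 7) and C70 groups held 4. The labels number the replicates without saying whether they were separate cultures, so the P values measure the spread between these libraries, which may be technical. The labels name 1 cell line and no engineered allele for all groups.

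Confluent 3T3-L1 cells given the hormone mixture re-enter the cell cycle, divide for a short time and then leave it for good as they become adipocytes, a phase called mitotic clonal expansion. Genes of DNA replication and mitosis are used while the cells divide and shut down in the mature adipocyte. Enzymes of fatty acid synthesis, the prolactin receptor and other adipocyte genes follow another course and climb as the cells fill with lipid.

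The 78 genes were divided by their vehicle mean at day 7. In 25 genes the vehicle mean at day 7 was under 1 CPM, and it was the lowest of the vehicle means in all 25. These 25 genes met the limit of 2 CPM over all libraries through the earlier days. A lowest mean at day 7 was thus close to given by the choice, and nothing is read from it. Of these 25 genes, 15 act in chromosome segregation, the spindle or the centriole and 6 in DNA replication, its checkpoint or repair. At day 7 their C70 means ran from 0.0507 to 1.68 CPM. All 25 stayed below the vehicle mean of day 2, which the choice also made likely. The other 53 genes kept 1 CPM or more and reached 554 CPM in vehicle-treated cells at day 7. They include the lipogenic enzymes Acly and Acaca, the prolactin receptor Prlr, the matrix protein Prelp and the kinase Sgk1. Over all 78 genes, the vehicle mean was lowest at day 7 in 48, and the C70 mean of day 7 was above every vehicle mean in 21. The choice used the means of day 7 and the same counts over all genes were not made, so nothing is read from these counts. By function, assigned after the values were seen, 22 genes act in chromosome segregation, the spindle or the centriole and 8 in DNA replication, its checkpoint or repair. A further 9 are metabolic enzymes or transport proteins, 6 are receptors, secreted or matrix proteins, 11 act in signalling or the cytoskeleton, 8 are transcription or chromatin factors, 8 are noncoding RNAs or pseudogenes and 6 are other coding genes.

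The ratios that chose the genes are given as a description, with no test. At day 2 they ran from 0.456 to 0.798 with a median of 0.683, and at day 7 from 1.25 to 3.88 with a median of 1.38. The mean CPM of the 78 genes ran from 2.12 in Zfp78 to 359 in Acly, with a median of 5.35 against 32.4 over all genes. Just inside the limit of day 2 were Phgdh at 0.798, Sept6 at 0.796 and Haus3 at 0.795, and just outside were Gm38253 at 0.801, Abca1 at 0.803 and Ralgapa2 at 0.806. Just inside the limit of day 7 were Aldh18a1 and Rftn2, both at 1.25, and Gm1821 at 1.26, while Gpd2, Thrsp and Per3 lay outside it by less than 0.01. The lowest mean CPM inside belonged to Zfp78, Depdc1a and Afmid, at 2.12, 2.15 and 2.17, and the highest outside to Ctsh, Gm43890 and Msrb2, at 1.94, 1.90 and 1.84. A mean CPM of 2 or more was met by 11494 genes. Of these, 1676 had a ratio of 0.8 or less at day 2 and 1569 a ratio of 1.25 or more at day 7. The reverse order, 1.25 or more at day 2 and 0.8 or less at day 7, was met by 86 of them.

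**Figure D1:**
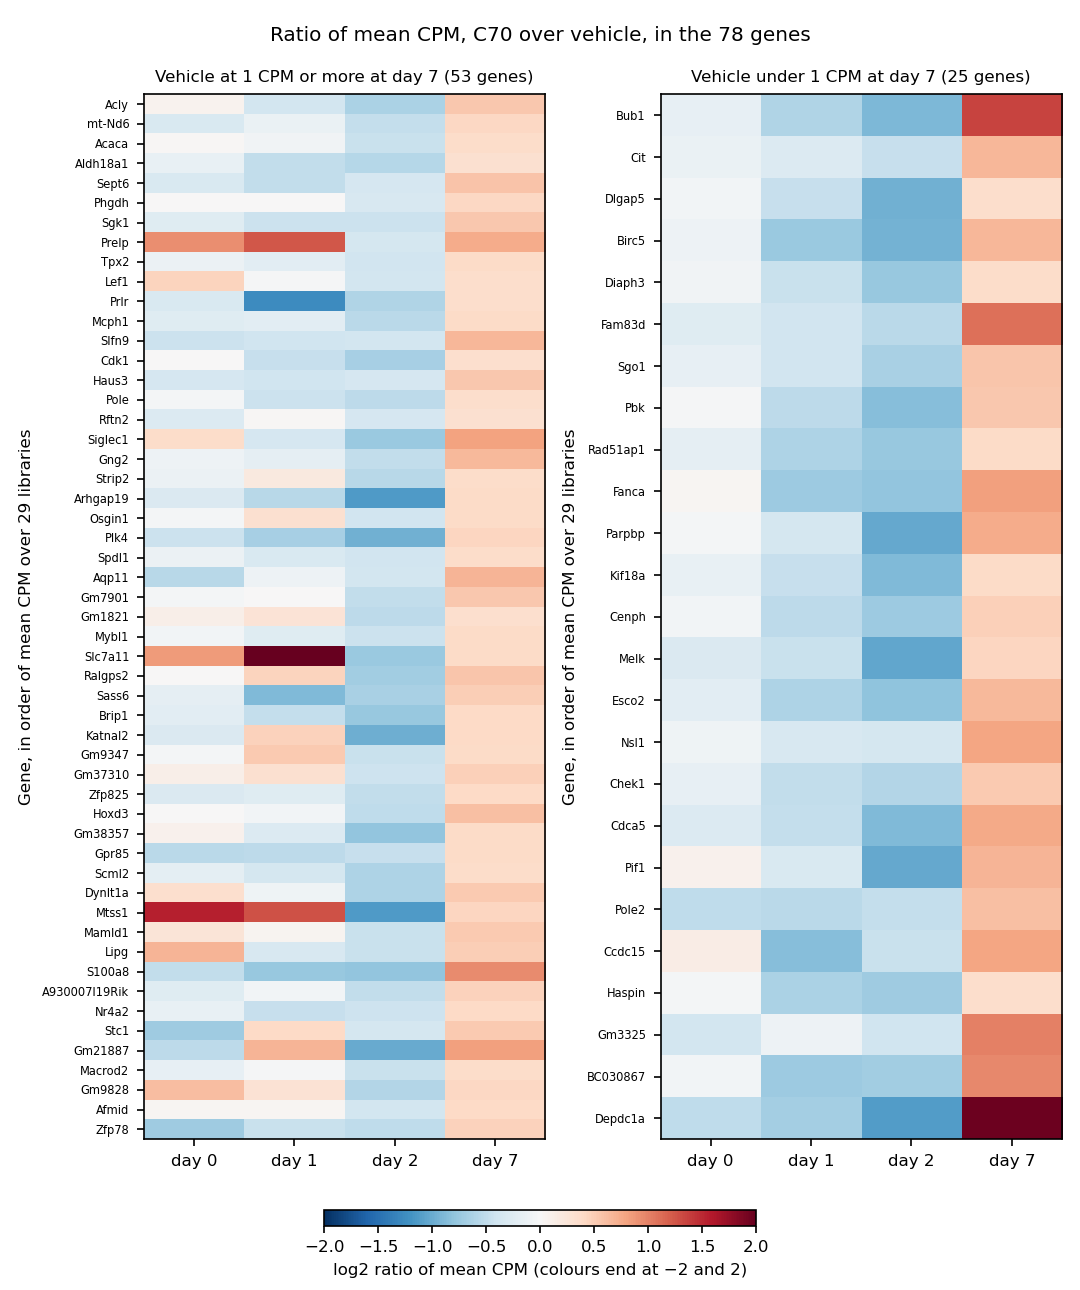
Colour shows the log2 ratio of mean CPM, C70 over vehicle, at days 0, 1, 2 and 7 (columns) for each of the 78 genes (rows, ordered by mean CPM over 29 libraries), with the 53 genes at 1 CPM or more in vehicle-treated cells at day 7 on the left and the 25 under 1 CPM on the right. All 78 rows are blue at day 2 and red at day 7 because the genes were chosen so, while days 0 and 1, whose ratios the choice did not use, differ between genes: the right panel is mostly blue at day 1, and Mtss1, Prelp and Slc7a11 are red at days 0 and 1.

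Total counts ran from 16320275 to 24037170 per library, so 1 count was worth 0.0416 to 0.0613 CPM. The 10 adipocyte markers examined (Adipoq, Plin1, Fabp4 and others) summed to 1344.1 to 1464.9 CPM in vehicle-treated cells at day 0 and 27528.8 to 31600.4 CPM at day 7, and to 29078.7 to 31829.3 CPM in C70-treated cells at day 7, overlapping. At day 7 the mean of Pparg was lower with C70 (455 against 394 CPM, vehicle first) and that of Adipoq higher (1257 against 1543 CPM). Lpl, with a vehicle mean of 1285 CPM, made up most of the sum at day 0. In C70-treated cells the sum at day 0 was 1490.9 to 1547.0 CPM, above vehicle without overlap. The same sum was lower in C70-treated cells at day 1 (5809.6 to 6149.8 against 3514.7 to 3705.4 CPM, with 8 of the 10 markers called lower) and at day 2 (25401.8 to 26483.8 against 14947.8 to 16689.6 CPM). The 10 measured of 11 preadipocyte or fibroblast markers (Dlk1, Pdgfra, Col1a1 and others) summed to 3826.3 to 4934.6 CPM in vehicle-treated and 7607.8 to 9022.9 CPM in C70-treated cells at day 7, and to 6146.2 to 6297.1 against 9741.2 to 10487.3 CPM at day 2, with no overlap at either day. In bulk RNA, fewer cells of a type and less RNA per cell cannot be told apart, and the part of these markers in the results on the 78 genes was not tested. None of the 78 genes is among the cell type markers examined.

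At day 2 every C70 library was below every vehicle library in 69 of the 78 genes, against 28.9% of all genes, and at day 7 every C70 library was above every vehicle library in 27, against 13.1% of all genes. All 27 were also apart at day 2. Of those 27, 24 were among the 53 genes with 1 CPM or more and 3 (Cdca5, BC030867 and Fanca) were among the 25 genes below it. By the criterion of adjusted P below 0.05 and a fold change over 1.25 in edgeR, 67 of the 78 genes were lower at day 2 (13.6% of all genes) and 48 were higher at day 7 (14.3% of all genes). Since the choice of genes used both days, nothing is read from these counts.

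The counts behind the day 7 ratios were small for many genes of the group under 1 CPM. Depdc1a, a mitotic protein, had 1 count in all vehicle libraries together and 4 in all C70 libraries at day 7. The ratio of these pooled counts, scaled by the library totals, was 3.97 with a 95% exact interval for counting error of 0.393 to 196. For Pif1, a DNA helicase, 3 and 5 counts gave a ratio of 1.66 and an interval of 0.322 to 10.7. Bub1, with 9 and 23 counts, had an interval of 1.13 to 6.23, and Birc5, with 62 and 100 counts, of 1.16 to 2.24. The interval included equal levels in 14 of the 25 genes, Depdc1a and Pif1 among them. The day 7 ratio chose the genes, so the intervals describe depth and are no test. They cover counting error alone and not the spread between libraries.

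The ratios of days 0 and 1 were not used to choose the genes. The libraries of those days did enter the choice through the mean CPM of 2 or more over all 29 libraries, a limit that the 25 genes under 1 CPM met through the earlier days, and without which 88 genes meet both ratios. At days 0 and 1 the C70 effect was tested with edgeR's quasi-likelihood test, with Benjamini-Hochberg adjustment over all 11959 genes. At day 0, the end of the treatment, 6 of the 78 genes were higher in C70-treated cells, 7.69% against 5.89% of all genes, and 6 were lower, 7.69% against 3.09% of all genes. The median log2 fold change was -0.09, beside 0.00 over all genes. The genes that rose were Mtss1, Prelp, Slc7a11, Lipg, Gm9828 and Lef1, and those that fell were Stc1, Zfp78, Aqp11, Gpr85, Plk4 and Slfn9. At day 1, 4 genes were higher, 5.13% against 13.6% of all genes, and 32 were lower, 41.0% against 7.8% of all genes, and the median log2 fold change was -0.29 beside -0.01 over all genes. Mtss1, Prelp and Slc7a11 were higher at both days, and Plk4 and Slfn9 were lower at both. Ralgps2 was the only other gene that rose at day 1. The remaining 30 genes that fell did so at day 1 without a call at day 0, and 35 genes had no call at either day.

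The other 1598 genes with a day 2 ratio of 0.8 or less also had a mean CPM of 2 or more. Of these, 551 were lower at day 1, or 34.5%, and the median log2 fold change was -0.24. The share among the 78 genes was 41.0%, and the difference between these shares was not tested. The other 1491 genes with a day 7 ratio of 1.25 or more met the same limit of mean CPM. Of these, 25 were lower and 757 higher at day 1, or 1.68% and 50.8%. At day 0 the shares lower and higher were 6.32% and 3.44% among the 1598 genes, and 4.56% and 18.9% among the 1491.

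None of the 25 genes under 1 CPM passed the edgeR test in either direction at day 0, where 4 were lower and 0 higher at an unadjusted P below 0.05 and the DESeq2 Wald test called 1 lower. At day 1, 19 of the 25 were lower and 0 higher, or 76% lower. Of all 96 genes that were under 1 CPM in vehicle-treated cells at day 7 and passed the day 2 ratio, these 25 included, 68 were lower, or 70.8%, and the difference between these shares was not tested. The median log2 fold change of the 25 was -0.44, and 0 were higher also at an unadjusted P below 0.05 and by DESeq2 and limma. Among the 53 other genes, 6 were higher and 6 lower at day 0 (5.89% and 3.09% of all genes). At day 1, 4 of the 53 were higher and 13 lower (13.6% and 7.8% of all genes), with a median log2 fold change of -0.12. Under quantile normalization with limma, the day 1 counts were 2 higher and 20 lower in the 53 genes and 16 lower in the 25. The C70 effect itself changed from day 0 to day 1 in 14 of the 78 genes. It moved down in 12, 15.4% against 5.23% of all genes, and up in 2 (Stc1 and Katnal2), 2.56% against 8.68% of all genes. Among the other 1598 genes of the day 2 ratio, it moved down in 19.8% and up in 0.563%. Among the other 1491 genes of the day 7 ratio, these shares were 2.15% and 35.6%. The differences between the shares were not tested. Without vehicle replicate 2 of day 1 the 12 became 7. The 2 became 1 to 4 as single libraries were left out, 4 being without vehicle replicate 1 of day 7.

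**Figure D2:**
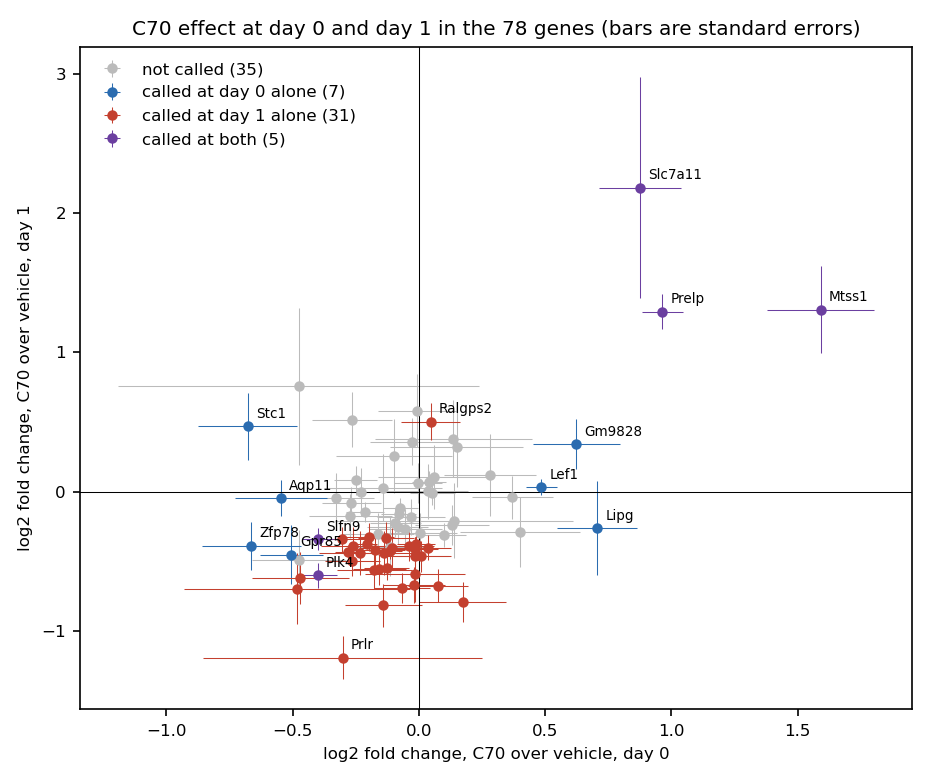
Each point is 1 of the 78 genes, with its log2 fold change (C70 over vehicle) at day 0 on the x axis and at day 1 on the y axis, bars showing the standard error and colours the calls (adjusted P below 0.05 and fold change over 1.25). Most called genes lie just left of or on the vertical zero line and below the horizontal one, as 32 genes fell at day 1, while Mtss1, Prelp and Slc7a11 stand alone at the upper right.

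**Figure D3:**
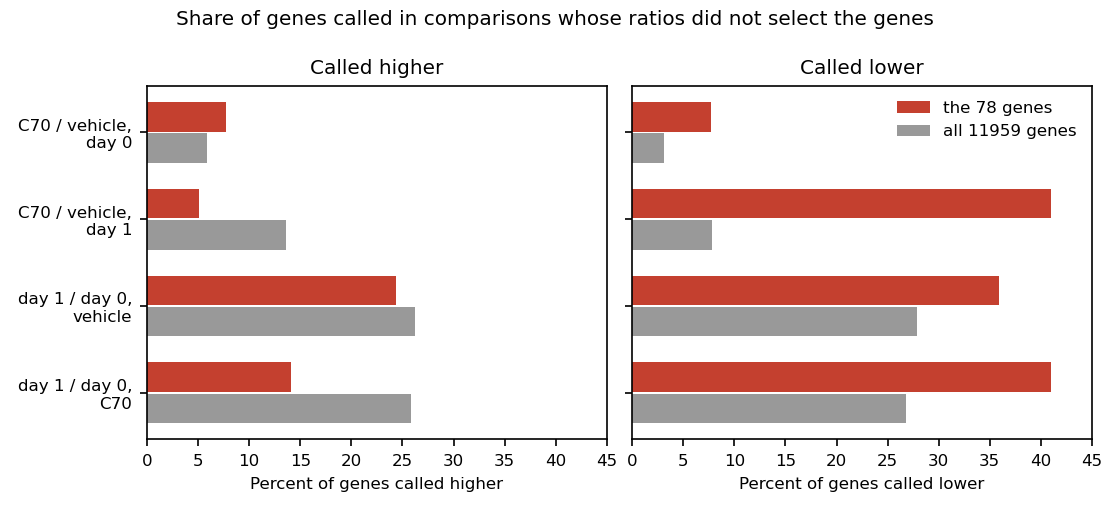
Bars give the percent of genes called higher (left) and lower (right) among the 78 genes (red) and among all 11959 genes (grey) in 4 comparisons whose ratios did not choose the genes, although their libraries enter the minimum of mean CPM. The widest gap is in the share lower at day 1, 41.0% against 7.8%.

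In vehicle-treated cells, 19 of the 78 genes rose from day 0 to day 1 (24.4% against 26.2% of all genes) and 28 fell (35.9% against 27.9% of all genes). In C70-treated cells, 11 rose (14.1% against 25.8%) and 32 fell (41.0% against 26.8%). The C70 groups of this comparison and of the day 0 and day 1 comparisons share libraries, so these counts are not independent of the ones above. Among the other 1598 genes of the day 2 ratio, 44.6% rose and 20.2% fell in vehicle-treated cells, and 34.6% and 26.7% in C70-treated cells. Among the other 1491 genes of the day 7 ratio, these shares were 17.3% and 62.2%, and 25.6% and 51.0%. The differences from the 78 genes were not tested. The vehicle mean was highest at day 2 in 26 of the 78 genes, at day 0 and at day 1 in 18 each and at day 7 in 16. The C70 mean was highest at day 0 in 35, at day 7 in 25, at day 1 in 12 and at day 2 in 6. Over all genes, the highest vehicle mean was at days 0, 1, 2 and 7 in 34.7%, 20.9%, 17.8% and 26.7%, and the highest C70 mean in 34.7%, 19.3%, 20.2% and 25.8%. The rule asked for C70 values below vehicle at day 2 and above at day 7, so nothing is read from this tally.

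Of the 22 genes of chromosome segregation, the spindle and the centriole, 17 fell at day 1 (7.8% of all genes). Plk4 alone fell at day 0 (3.09% of all genes). At day 2 all 22 had C70 libraries below all vehicle libraries, as had 69 genes of the whole set and 28.9% of all genes. The day 2 ratio chose the genes, so nothing is read from that day 2 count. The group of 22 genes was assigned after the values were seen. In 20 of them the lowest vehicle mean was that of day 7, from which nothing is read either. Bub1 (chr2:127801122-127831865, minus strand), a kinase of the spindle checkpoint, had 18.5, 21.3 and 19.6 CPM in the vehicle libraries and 19.1, 17.5, 15.7 and 18.6 CPM in the C70 libraries at day 0. At day 1 these were 25.8, 26.6 and 28 against 18.5, 17.6, 18.9 and 15.7 CPM, and at day 2 21.5, 23 and 24.2 against 11.4, 10.7, 13 and 13.8 CPM. At day 7 they were 0, 0.159, 0.14 and 0.157 against 0.146, 0.319, 0.271 and 0.432 CPM. The groups overlapped at day 0, were apart at days 1 and 2 with C70 below, and overlapped at day 7, where 3 of 4 C70 libraries were above all vehicle libraries. The log2 fold change of Bub1 was -0.13 ± 0.09 (SE, adjusted P = 0.362) at day 0 and -0.55 ± 0.09 (SE, adjusted P = 7.81e-06) at day 1, and the change between the days was -0.42 ± 0.12 (SE, adjusted P = 0.0161), a call lost without vehicle replicate 1 of day 0 (adjusted P = 0.0585).

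Birc5 (chr11:117849251-117855743, plus strand), which encodes survivin of the chromosomal passenger complex, had 21, 22.7 and 22.9 CPM in vehicle-treated and 12.9, 11.1, 16.7 and 12.4 CPM in C70-treated cells at day 1. At day 2 the values were 22.6, 21.4 and 21.4 against 10.7, 11.7, 11.9 and 10.9 CPM. By day 7 all 8 libraries were under 2 CPM, at 0.799, 0.637, 0.933 and 0.783 in vehicle-treated and 1.12, 1.06, 0.866 and 1.97 in C70-treated cells, with the lowest C70 library inside the vehicle range. Birc5 fell at day 1, with a log2 fold change of -0.69 ± 0.11 (SE, adjusted P = 5.37e-06), and from day 0 to day 1 it rose in vehicle-treated cells (0.61 ± 0.11 SE, adjusted P = 2.50e-05) with a value of -0.02 ± 0.11 (SE, adjusted P = 0.865) in C70-treated cells. Cdk1 (chr10:69335146-69352938, minus strand), the kinase that drives entry into mitosis, had 28.5, 30.5 and 26.6 CPM in vehicle-treated and 29.5, 28.3, 25.3 and 31.1 CPM in C70-treated cells at day 0. At day 1 it had 33.6, 39.7 and 40.8 against 28.5, 26.4, 29.8 and 26 CPM and at day 2 36.4, 35.7 and 39.8 against 22.1, 24.5, 22.7 and 24.4 CPM. At day 7 it stood at 7.45, 4.41, 4.99 and 5.43 against 7.48, 7.6, 6.82 and 6.38 CPM, where 2 of 4 C70 libraries were above all vehicle libraries. Its day 1 log2 fold change was -0.40 ± 0.09 (SE, adjusted P = 5.50e-04).

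Tpx2, which activates Aurora A on the spindle, was the most abundant mitotic gene of the set at a mean of 55.5 CPM over all libraries. It went from 69.8, 66.5 and 68.7 CPM in vehicle-treated and 54.9, 53.7, 52.1 and 49.5 CPM in C70-treated cells at day 2 to 7.03, 5.42, 4.95 and 6.53 and 8.16, 8.34, 6.88 and 7.77 CPM at day 7. Its log2 fold change at day 1 was -0.16 ± 0.07 (SE, adjusted P = 0.0619), which did not pass the test. Plk4 (chr3:40800019-40816883), the kinase that starts centriole duplication, was lower in every C70 library at days 0, 1 and 2 and higher in every C70 library at day 7. Its CPM was 15.3, 17.2 and 17.2 against 13.1, 11.9, 11 and 12.9 at day 0, vehicle first, then 10.7, 12.1 and 11.7 against 7.14, 6.84, 7.36 and 7.74 at day 1. At day 2 it was 12.6, 14.6 and 15.3 against 7.52, 7.39, 7.84 and 6.47, and at day 7 2.82, 2.97, 2.71 and 3.13 against 3.64, 4.2, 3.79 and 4.08. Its log2 fold change was -0.40 ± 0.08 (SE, adjusted P = 3.28e-04) at day 0 and -0.60 ± 0.09 (SE, adjusted P = 1.87e-06) at day 1. Sass6, which forms the hub of the new centriole, had a log2 fold change of -0.14 ± 0.15 (SE, adjusted P = 0.595) at day 0 and -0.82 ± 0.16 (SE, adjusted P = 9.32e-05) at day 1.

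**Figure D4:**
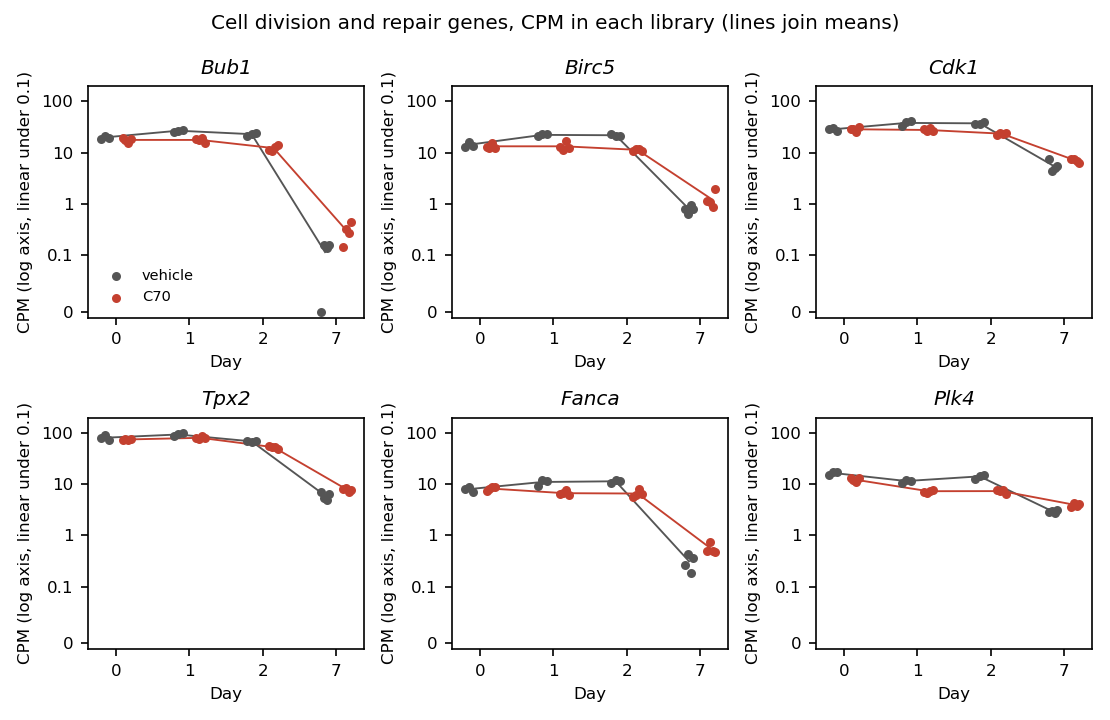
Points are the CPM of each library (grey vehicle, red C70; 3 or 4 libraries per group) at days 0, 1, 2 and 7 for 6 genes of cell division and repair, on a log axis that turns linear under 0.1 CPM, with lines joining group means. In each panel the red points lie below the grey at day 2, and at day 7 both groups lie below their day 2 values, by least in Plk4, with the red means above the grey ones.

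Of 65 measured genes in a list of G2/M and mitosis genes, 11 are in the set (Cdk1, Bub1, Tpx2, Birc5, Sgo1, Dlgap5, Depdc1a, Melk, Pbk, Fam83d and Cit). At day 1, 9 of the 11 fell, and Tpx2 and Cit did not pass the test. Over the whole list, 44 genes fell and 1 rose at day 1 (7.8% and 13.6% of all genes, median log2 fold change -0.39), and none passed the edgeR test at day 0 in either direction (6 were lower and 0 higher at an unadjusted P below 0.05, and DESeq2 and limma also called 0). In 39 of the 65 genes the vehicle mean at day 7 was under 1 CPM. A day 2 ratio of 0.8 or less was met by 62 of the 65 and a day 7 ratio of 1.25 or more by 13, so the day 7 limit left most of the list out of the set. At day 7 itself 8 of the list were higher in C70-treated cells (14.3% of all genes) and 2 lower, and the median log2 fold change was 0.06. Among the 11, Dlgap5, a spindle protein, had a log2 fold change of -0.41 ± 0.09 (SE, adjusted P = 2.87e-04) at day 1 and Pbk, a mitotic kinase, -0.47 ± 0.11 (SE, adjusted P = 0.00119). Melk, a kinase of dividing cells, had -0.39 ± 0.14 (SE, adjusted P = 0.0244), Fam83d, which brings a kinase to the spindle, -0.33 ± 0.10 (SE, adjusted P = 0.00938), and Sgo1, the protector of centromeric cohesion, -0.33 ± 0.11 (SE, adjusted P = 0.0211). Depdc1a had -0.62 ± 0.19 (SE, adjusted P = 0.00863). Outside that list, Cdca5, or sororin, which holds sister chromatids together, gave -0.44 ± 0.16 (SE, adjusted P = 0.0286) at day 1, and at day 7 had 0.532, 0.531, 0.28 and 0.574 CPM in vehicle-treated and 0.922, 0.691, 0.866 and 0.768 CPM in C70-treated cells. Some of these day 1 calls rested on single libraries. That of Depdc1a was lost without vehicle replicate 1 (adjusted P = 0.0507), and that of Sgo1 without vehicle replicate 2 or C70 replicate 2 or 4 (0.065 to 0.154). Melk lost it without vehicle replicate 2 or 3 or C70 replicate 2 or 4 (adjusted P 0.0572 to 0.0808). Cdca5 (adjusted P 0.0764 to 0.11) and Fam83d (adjusted P 0.0236 to 0.0807, with folds under the limit) lost it without vehicle replicate 2 or 3 or C70 replicate 1, 2 or 4. Cit, the citron kinase of cytokinesis, had 0.213, 0.212, 0.42 and 0.209 CPM in vehicle-treated and 0.194, 0.425, 0.433 and 0.624 CPM in C70-treated cells at day 7, and the groups overlapped.

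The 8 genes of DNA replication, its checkpoint and repair had their lowest vehicle mean at day 7 in every case, from which nothing is read. At day 1, 5 of them fell (7.8% of all genes). None was called by edgeR at day 0, where 1 was lower and 0 higher at an unadjusted P below 0.05 and DESeq2 called 1 lower. Fanca, a subunit of the Fanconi anaemia repair complex, had 7.86, 8.97 and 7.11 CPM in vehicle-treated and 7.18, 7.93, 8.81 and 8.82 CPM in C70-treated cells at day 0 and 9.32, 12 and 11.7 against 6.29, 6.59, 7.67 and 6.05 CPM at day 1. Its values were 10.5, 12.2 and 11.4 against 5.56, 6.18, 8.09 and 6.36 CPM at day 2 and 0.266, 0.425, 0.187 and 0.366 against 0.485, 0.744, 0.487 and 0.48 CPM at day 7. The groups overlapped at day 0 and were apart at days 1, 2 and 7, with C70 below at days 1 and 2 and above at day 7. Its log2 fold change was 0.08 ± 0.12 (SE, adjusted P = 0.736) at day 0 and -0.67 ± 0.12 (SE, adjusted P = 3.58e-05) at day 1, and the change between days was -0.75 ± 0.17 (SE, adjusted P = 0.00175). Pole, the catalytic subunit of DNA polymerase epsilon, fell at day 1 by 0.38 ± 0.08 (SE) on the log2 scale (adjusted P = 4.54e-04), short of the fold limit without vehicle replicate 2 or C70 replicate 4 of that day (-0.31 in both fits), and had 3.35, 4.46, 3.55 and 3.76 CPM in vehicle-treated and 4.66, 4.99, 4.49 and 5.13 CPM in C70-treated cells at day 7. Pole2, another subunit of the same polymerase, gave -0.47 ± 0.18 (SE, adjusted P = 0.0704) at day 0 and -0.49 ± 0.22 (SE, adjusted P = 0.0704) at day 1 and did not pass the test. Parpbp, a PARP1 binding protein, gave -0.30 ± 0.14 (SE, adjusted P = 0.103) and Pif1 -0.24 ± 0.14 (SE, adjusted P = 0.183), and neither passed. Of 57 measured genes in a list of S phase and replication genes, 34 fell (7.8% of all genes) and none rose at day 1 in edgeR (0 also at an unadjusted P below 0.05 and by DESeq2 and limma), and 3, Pole and Pole2 among them, are in the set. At day 0, 6 of that list were lower (3.09% of all genes) and 0 higher in edgeR, with 17 lower and 0 higher at an unadjusted P below 0.05.

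Promoters of the set were read from a RefSeq table on build GRCm38.p6, which gave the 300 bases from 250 before to 50 after the start for 53 of the 78 genes. A gene with several starts counts once where any of its windows holds the motif. In 7 genes a window held matches before the start to both the CCAAT box (CCAAT) and the cell cycle homology region or CHR (TTTGAA), motifs known from promoters of mitotic genes. Sequences of 5 of them, picked after their matches were seen, are shown to let these motifs be read in place, and the other two were Sgk1 and Hoxd3. Each line gives the 250 bases before the start, in the direction of the gene, with both motifs in capitals wherever they occur on either strand (ATTGG and TTCAAA are the same letters read on the other strand):
Cdk1, chr10:69352913-69353162, minus strand: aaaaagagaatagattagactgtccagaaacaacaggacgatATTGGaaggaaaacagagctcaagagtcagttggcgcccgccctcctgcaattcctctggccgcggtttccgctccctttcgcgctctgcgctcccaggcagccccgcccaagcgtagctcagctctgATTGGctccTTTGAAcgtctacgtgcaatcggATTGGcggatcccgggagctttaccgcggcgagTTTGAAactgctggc
Fam83d, chr2:158767849-158768098, plus strand: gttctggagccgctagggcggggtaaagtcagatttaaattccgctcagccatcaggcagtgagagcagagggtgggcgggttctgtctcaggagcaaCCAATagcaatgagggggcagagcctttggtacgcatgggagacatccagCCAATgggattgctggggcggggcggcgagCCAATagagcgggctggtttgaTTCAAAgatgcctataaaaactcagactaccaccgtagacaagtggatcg
Depdc1a, chr3:159495183-159495432, plus strand: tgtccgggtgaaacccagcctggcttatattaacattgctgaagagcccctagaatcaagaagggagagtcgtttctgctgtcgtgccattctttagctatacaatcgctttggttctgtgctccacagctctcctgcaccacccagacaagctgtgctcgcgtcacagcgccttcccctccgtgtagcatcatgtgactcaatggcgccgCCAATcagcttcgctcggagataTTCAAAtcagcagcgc
Parpbp, chr10:88146942-88147191, minus strand: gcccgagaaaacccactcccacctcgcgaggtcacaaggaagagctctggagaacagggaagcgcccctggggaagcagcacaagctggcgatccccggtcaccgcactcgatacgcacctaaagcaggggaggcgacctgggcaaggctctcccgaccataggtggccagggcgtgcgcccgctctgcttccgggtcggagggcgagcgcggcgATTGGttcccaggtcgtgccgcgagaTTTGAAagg
Arhgap19, chr19:41802085-41802334, minus strand: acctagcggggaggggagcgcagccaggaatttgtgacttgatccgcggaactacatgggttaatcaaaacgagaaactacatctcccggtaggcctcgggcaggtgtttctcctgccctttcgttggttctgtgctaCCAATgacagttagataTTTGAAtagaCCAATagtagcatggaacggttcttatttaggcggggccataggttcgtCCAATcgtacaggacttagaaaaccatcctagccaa

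Counted from the start, with -1 the base before it, the nearest CCAAT match of Cdk1 began at -48 and the nearest CHR match at -15. The same positions were -72 and -50 in Fam83d, -39 and -16 in Depdc1a and -35 and -9 in Parpbp, so in these 4 genes the CHR letters followed the CCAAT letters on the side of the start. The starts are those of the RefSeq table. For Cdk1 that start lies inside the gene by the coordinates given with its CPM values, and so does the CHR match at -15. In Hoxd3, not shown, the CHR match at -199 lay farther from the start than the CCAAT match at -142, and in 1 window of Sgk1 the matches began at -223 and -227. Arhgap19, a GTPase activating protein, had its CHR match at -95, between CCAAT matches at -112 and -85, and further CCAAT matches at -36 and -4. The match at -4 crosses the start, so the line shown cuts it and it is not in capitals. Over the 53 genes with a window, 52.8% held a CCAAT match and 26.4% a CHR match on either strand, against 43.6% and 14% of 9007 measured genes with a window. Both motifs were found in 8 of the 53 genes, or 15.1%, against 7.07% of all windows. The 55 genes of the G2/M list with a window held CCAAT in 74.5%, CHR in 69.1% and both in 56.4%, and the 8 of them in the set held both in 3. Among the 19 genes under 1 CPM with a window, 52.6% held CCAAT and 26.3% CHR. Of 11 further motifs searched on both strands, the GC box (GGGCGG) was in 56.6% of the set and 70.6% of all windows, the E2F letters (TGGCGC) in 30.2% and 24.9%, and the STAT letters (TTCNNNGAA) in 15.1% and 8.04%. The TATA box (TATAAA) was in 13.2% and 8.39%, the E-box (CACGTG) in 9.43% and 11.9%, and the AP-1 letters (TGANTCA) in 9.43% and 5.63%. The C/EBP letters (TTGCNNAA) and the TEAD letters (GGAATG) were each in 7.55% of the set, against 9.78% and 13.8% of all windows, and the CRE (TGACGTCA) in 1.89% against 3.67%. The glucocorticoid response element was found in 1 gene of the set, Sgk1, against 0.0999% of all windows, and the PPAR direct repeat in none. A match describes letters and not a bound site.

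Fatty acid synthesis was represented by its first 2 enzymes. Acly (chr11:100476353-100528000, minus strand), ATP citrate lyase, makes cytosolic acetyl-CoA from citrate and was the most abundant gene of the set. It had 253, 265 and 255 CPM in vehicle-treated and 272, 262, 268 and 277 CPM in C70-treated cells at day 0, and 236, 239 and 222 against 182, 180.2, 175 and 183 CPM at day 1. At day 2 it had 300.2, 307 and 302 against 190.2, 195, 199 and 199.8 CPM and at day 7 509, 571, 555 and 580.3 against 836, 662, 672 and 1053 CPM. The groups were apart at days 1, 2 and 7, with all C70 libraries below at days 1 and 2 and above at day 7. The log2 fold change was 0.10 ± 0.09 (SE, adjusted P = 0.499) at day 0 and -0.31 ± 0.09 (SE, adjusted P = 0.00525) at day 1, the latter short of the 1.25-fold limit, and the change between the days passed at -0.41 ± 0.12 (SE, adjusted P = 0.0188) but not without vehicle replicate 2 of day 1 (adjusted P = 0.0529). From day 0 to day 1 Acly fell in C70-treated cells (-0.60 ± 0.08 SE, adjusted P = 1.27e-07) and had -0.19 ± 0.09 (SE, adjusted P = 0.0708) in vehicle-treated cells.

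Acaca (chr11:84129672-84401651, plus strand), acetyl-CoA carboxylase, makes malonyl-CoA from that acetyl-CoA. It had 76.6, 75.7 and 70.7 CPM in vehicle-treated and 67.5, 74.7, 72.7 and 69.2 CPM in C70-treated cells at day 1, with a log2 fold change of -0.01 ± 0.09 (SE, adjusted P = 0.955). At day 2 the values were 133, 147 and 128 against 97.9, 103, 102 and 96.9 CPM, and at day 7 121, 172, 163 and 152 against 205, 159.5, 188 and 232 CPM, where 1 C70 library lay within the vehicle range. Of 24 measured genes in a list of fatty acid and triglyceride synthesis, 8 fell and 2 rose at day 1 (7.8% and 13.6% of all genes), 17 had a day 2 ratio of 0.8 or less, and Acly and Acaca alone had a day 7 ratio of 1.25 or more. Over that list the median log2 fold change at day 7 was -0.02.

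**Figure D5:**
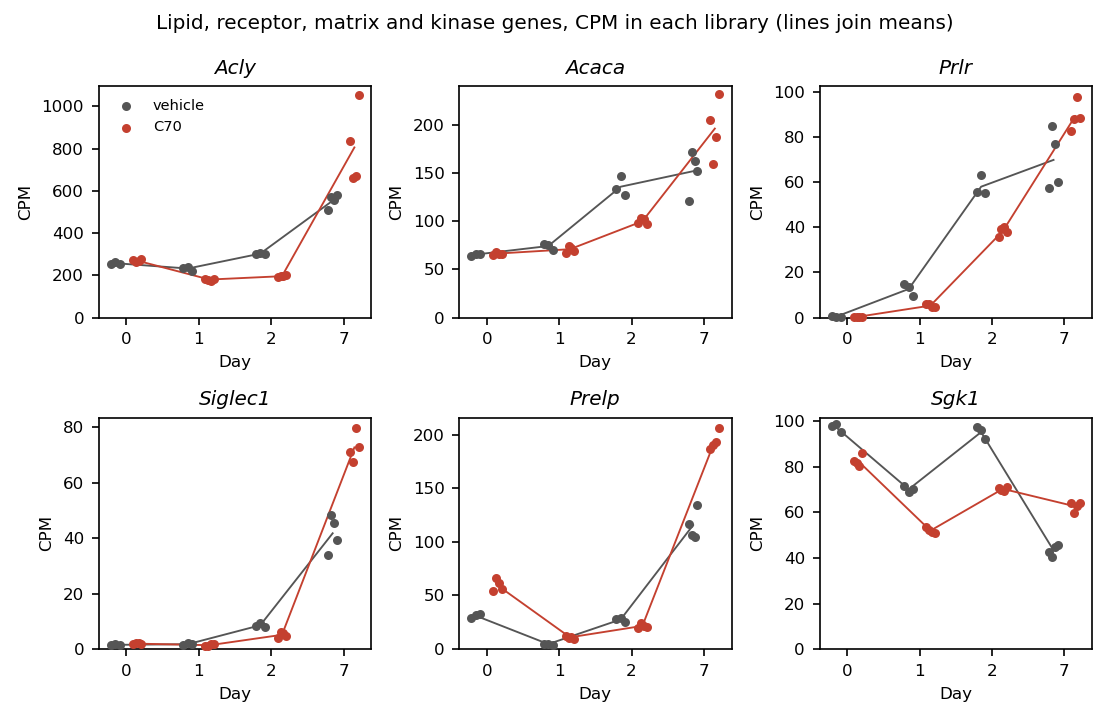
Points are the CPM of each library (grey vehicle, red C70) at days 0, 1, 2 and 7 for the lipogenic genes Acly and Acaca, the receptors Prlr and Siglec1, the matrix gene Prelp and the kinase gene Sgk1, on linear axes from 0 with lines joining group means. All panels show red below grey at day 2 and red means above grey at day 7, and the vehicle level at day 7 is the highest of the course in every panel other than Sgk1, where it is the lowest.

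Receptors, secreted proteins and matrix proteins showed several courses before day 2. Prlr (chr15:10177238-10349180, plus strand), the prolactin receptor, was low at day 0, with 0.588, 0.378 and 0.336 CPM in vehicle-treated and 0.354, 0.473, 0.252 and 0.333 CPM in C70-treated cells. It reached 14.9, 13.6 and 9.51 against 6.03, 5.93, 4.56 and 4.71 CPM at day 1, 55.8, 63.2 and 55.1 against 35.7, 39.4, 40.2 and 38.1 CPM at day 2 and 57.3, 84.8, 77.1 and 60.3 against 82.9, 87.9, 97.8 and 88.6 CPM at day 7. The C70 libraries were all lower at days 1 and 2, and at day 7 the lowest C70 library was below the highest vehicle library. Prlr fell by 1.19 ± 0.15 (SE) on the log2 scale at day 1 (adjusted P = 2.50e-07), and the change from day 0, -0.89 ± 0.59 (SE, adjusted P = 0.324), did not pass. It rose from day 0 to day 1 by 4.78 ± 0.27 in vehicle-treated (adjusted P = 3.90e-16) and by 3.89 ± 0.30 in C70-treated cells (adjusted P = 4.91e-13).

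Siglec1, a sialic acid binding receptor best known from macrophages, falls outside the fixed naming rule and was picked after its values were seen. Its libraries had 1.3, 1.84 and 1.44 CPM in vehicle-treated and 1.77, 2.26, 2.12 and 1.71 CPM in C70-treated cells at day 0, and 1.38, 2.1 and 1.8 against 1.16, 0.956, 1.76 and 1.69 CPM at day 1. At day 2 they had 8.41, 9.38 and 7.97 against 4.03, 6.06, 5.7 and 4.8 CPM and at day 7 33.9, 48.5, 45.3 and 39.4 against 71, 67.5, 79.6 and 72.9 CPM, so the C70 libraries were all below at day 2 and all above at day 7. Of 10 macrophage markers examined, Cd68 and Cd14 were measured, and their sum was 4.2 to 5.8 CPM in vehicle-treated and 3.6 to 5.3 CPM in C70-treated cells at day 7. That sum was higher in C70-treated cells at day 0 (8.2 to 9.2 CPM in vehicle-treated and 26.1 to 27.6 CPM in C70-treated cells), at day 1 (4.3 to 5.3 against 18 to 20.6 CPM) and at day 2 (3.1 to 4.2 against 9.2 to 10.3 CPM). At day 0 the difference lay in Cd68, with means of 1.37 CPM in vehicle-treated and 19.4 CPM in C70-treated cells. The means of Cd14 at day 0 were 7.31 and 7.33 CPM. S100a8, a calcium binding protein of myeloid cells, had 0.504, 0.378 and 0.721 CPM in vehicle-treated and 0.303, 0.473, 0.403 and 0.333 CPM in C70-treated cells at day 0, 4.18, 3.62 and 4.3 against 1.85, 2.02, 3 and 2.45 CPM at day 2 and 6.5, 2.76, 3.5 and 3.76 against 7.96, 7.81, 7.8 and 8.35 CPM at day 7. It fell at day 1, with a log2 fold change of -0.70 ± 0.26 (SE, adjusted P = 0.0295), a call lost without vehicle replicate 2 or 3 or C70 replicate 1 of that day (adjusted P 0.0699 to 0.124).

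Prelp (chr1:133910304-133921414, minus strand), a leucine-rich proteoglycan of the matrix, had C70 libraries on either side of the vehicle ones at different days. It had 29.4, 31.6 and 32.3 CPM in vehicle-treated and 54.2, 66, 61.4 and 55.9 CPM in C70-treated cells at day 0, and 4.88, 4.79 and 4.25 against 11.8, 10.6, 11.6 and 9.87 CPM at day 1. At day 2 it had 28.1, 29.3 and 25.5 against 19.5, 24.2, 21.7 and 21 CPM and at day 7 117, 107, 105 and 135 against 187, 191, 193 and 206 CPM. The groups were apart at all days, with C70 above at days 0, 1 and 7 and below at day 2. Prelp rose at day 0 by 0.96 ± 0.08 (SE, adjusted P = 2.13e-10) and at day 1 by 1.29 ± 0.13 (SE, adjusted P = 1.42e-09) on the log2 scale. Of 51 measured genes in a list of other matrix proteins and integrins, 28 rose and 1 fell at day 1 (13.6% and 7.8% of all genes), and 3 of the 51 had a day 2 ratio of 0.8 or less. An overlapping gene, Gm15851, lies on the opposite strand of Prelp.

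Stc1, the secreted hormone stanniocalcin 1, fell at day 0 (-0.68 ± 0.20 SE, adjusted P = 0.0132) and had 0.47 ± 0.24 (SE, adjusted P = 0.121) at day 1, and the change between the days was 1.15 ± 0.31 (SE, adjusted P = 0.00814). Its values at day 0 were 5.84, 7.4 and 6.49 CPM in vehicle-treated and 3.95, 3.78, 5.09 and 3.29 CPM in C70-treated cells, and at day 2 1.32, 1.68 and 0.629 against 1.25, 1.04, 0.551 and 0.939 CPM, where the groups overlapped. The day 0 call of Stc1 was lost without vehicle replicate 2 or C70 replicate 4 (adjusted P 0.0698 and 0.054). Lipg, endothelial lipase, rose at day 0 (0.71 ± 0.16 SE, adjusted P = 0.00148), with 3.87, 3.35 and 4.42 CPM in vehicle-treated and 6.12, 6.78, 5.04 and 6.86 CPM in C70-treated cells. Aqp11, an intracellular water channel, fell at day 0 (-0.55 ± 0.18 SE, adjusted P = 0.032) and had 10.3, 10.2, 9.24 and 10.3 against 16.5, 15.5, 16.5 and 15.7 CPM at day 7, with all C70 libraries above. Its day 0 call was lost without vehicle replicate 1 or 2 or C70 replicate 3 or 4 (adjusted P 0.0925 to 0.141). Gpr85, an orphan receptor, fell at day 0 (-0.50 ± 0.12 SE, adjusted P = 0.00396), with 11.1, 13.3 and 11.3 CPM in vehicle-treated and 8.3, 7.51, 7.61 and 9.32 CPM in C70-treated cells, and its highest library of days 1, 2 and 7 had 2.43 CPM.

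Amino acid metabolism gave 3 genes, all in a list of integrated stress response and amino acid genes. Phgdh, the first enzyme of serine synthesis, had 22.7, 22.7 and 22 CPM in vehicle-treated and 20.8, 24.1, 23.2 and 22.6 CPM in C70-treated cells at day 1 and did not pass the test at day 0 or 1 (0.04 ± 0.07 SE, adjusted P = 0.738 at day 0, and 0.07 ± 0.08 SE, adjusted P = 0.529 at day 1). At day 2 it had 46.3, 46.6 and 46 against 34.7, 37.1, 37 and 38.9 CPM and at day 7 123, 103, 99 and 109 against 148, 147, 152 and 132 CPM. A pseudogene named Phgdh-ps1 exists, so reads could be split between copies. Aldh18a1, which makes a precursor of proline, fell at day 1 by 0.43 ± 0.05 (SE) on the log2 scale (adjusted P = 6.79e-08), with 55.8, 57.9 and 54.5 CPM in vehicle-treated and 41.1, 41.1, 38.5 and 39.1 CPM in C70-treated cells. Its day 7 values were 51.5, 62.9, 58 and 60.4 against 73.9, 69.8, 76.3 and 71.2 CPM. Slc7a11, the cystine transporter, was almost absent from the counts at day 1: its counts were 3, 2 and 0 in the vehicle libraries and 5, 9, 10 and 5 in the C70 libraries. At day 0 it had 9.08, 8.05 and 9.56 CPM in vehicle-treated and 15.5, 16.3, 15.7 and 16.5 CPM in C70-treated cells and rose with C70 by 0.88 ± 0.16 (SE, adjusted P = 1.84e-04) on the log2 scale. The day 1 value, 2.18 ± 0.79 (SE, adjusted P = 0.0279), rests on these few counts and did not pass in fits without vehicle replicate 2, vehicle replicate 3, C70 replicate 2 or C70 replicate 3 of that day (adjusted P 0.0603 to 0.122). Of 26 measured genes in that list, 9 fell and 5 rose at day 1 (7.8% and 13.6% of all genes), and 18 had a day 2 ratio of 0.8 or less.

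The signalling and cytoskeletal genes included Sgk1 (chr10:21882184-21999903, plus strand), a kinase induced by glucocorticoids. Sgk1 had 97.9, 98.8 and 95.4 CPM in vehicle-treated and 82.7, 81.5, 80.4 and 85.9 CPM in C70-treated cells at day 0, and 71.4, 68.9 and 70.1 against 53.4, 52.3, 51.4 and 50.9 CPM at day 1. At day 2 it had 97.4, 96 and 92.4 against 70.6, 69.8, 69.6 and 71.4 CPM and at day 7 42.5, 40.5, 44.8 and 45.6 against 64, 60.0, 62.7 and 64 CPM. Its groups were apart at all days, with C70 below at days 0, 1 and 2 and above at day 7. The log2 fold change was -0.20 ± 0.04 (SE, adjusted P = 2.19e-04) at day 0, below the fold limit, and -0.37 ± 0.04 (SE, adjusted P = 7.12e-09) at day 1. Of 22 measured genes in a list of glucocorticoid targets and metabolism, 6 rose and 1 fell at day 1 (13.6% and 7.8% of all genes), the 1 being Sgk1. Sept6, a septin of the cytoskeleton, had 89, 94.9 and 95 CPM in vehicle-treated and 64.6, 63.8, 69.4 and 66.8 CPM in C70-treated cells at day 1 (-0.43 ± 0.05 SE, adjusted P = 1.62e-08), and 83.2, 74.5, 82 and 83.2 against 122, 118, 117 and 124 CPM at day 7.

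Mtss1, a membrane bending scaffold that binds actin, was above the vehicle libraries at days 0 and 1. It had 0.883, 0.919 and 0.961 CPM in vehicle-treated and 1.97, 2.52, 3.07 and 3.24 CPM in C70-treated cells at day 0, 0.395, 0.349 and 0.501 against 0.846, 0.956, 1.22 and 0.992 CPM at day 1 and 3.55, 4.8 and 4.25 against 1.96, 2.37, 1.65 and 1.67 CPM at day 2. At day 7 it had 4.47, 6.48, 4.85 and 5.12 against 6.41, 8.34, 6.5 and 7.01 CPM, where the groups overlapped by 1 C70 library. Mtss1 rose at day 0 (1.59 ± 0.21 SE, adjusted P = 1.63e-06) and at day 1 (1.31 ± 0.31 SE, adjusted P = 0.0011). Ralgps2, an exchange factor for Ral GTPases, rose at day 1 alone (0.50 ± 0.13 SE, adjusted P = 0.00256), with 3.4, 3.94 and 3.75 CPM in vehicle-treated and 5.82, 4.83, 4.93 and 4.61 CPM in C70-treated cells. Rftn2, a raft protein, gave -0.25 ± 0.09 (SE, adjusted P = 0.0377) at day 0 and 0.08 ± 0.11 (SE, adjusted P = 0.578) at day 1, neither past the fold limit.

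Among transcription factors, Lef1 (chr3:131110471-131224356, plus strand), which carries Wnt signals to DNA, rose at day 0 and not at day 1. It had 19.5, 21.9 and 19.3 CPM in vehicle-treated and 28, 28, 26.2 and 28.6 CPM in C70-treated cells at day 0, and 34.3, 30.6 and 29.6 against 32.8, 29.8, 32.4 and 29.1 CPM at day 1. At day 2 it had 57.3, 62.1 and 60.0 against 47.1, 45.5, 47.4 and 44.8 CPM and at day 7 43.9, 41.7, 47 and 44.3 against 56.9, 55, 53.8 and 59 CPM, apart in opposite directions. Its log2 fold change was 0.49 ± 0.06 (SE, adjusted P = 3.95e-07) at day 0 and 0.03 ± 0.06 (SE, adjusted P = 0.669) at day 1, and the change between them was -0.45 ± 0.08 (SE, adjusted P = 1.63e-04). Of 24 measured genes in a Wnt list, 10 rose and 1 fell at day 1 (13.6% and 7.8% of all genes), and Lef1 alone had a day 2 ratio of 0.8 or less. Nr4a2, an orphan nuclear receptor and immediate early gene, had -0.40 ± 0.21 (SE, adjusted P = 0.138) at day 1 and overlapping groups at days 2 and 7. Hoxd3, a homeobox factor, had 0.04 ± 0.16 (SE, adjusted P = 0.922) at day 0 and 0.00 ± 0.20 (SE, adjusted P = 0.996) at day 1, and it overlaps Hoxd4 on its own strand and Hoxd3os1 and Haglr on the other. Zfp78, a zinc finger protein, fell at day 0 (-0.66 ± 0.19 SE, adjusted P = 0.0145), though not without vehicle replicate 2 (adjusted P = 0.0924).

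The mitochondrially encoded gene mt-Nd6, a subunit of complex I, had 172, 178 and 202 CPM in vehicle-treated and 153, 146, 109.7 and 122 CPM in C70-treated cells at day 2 and 190.1, 252, 225 and 189 against 301, 300.2, 266 and 272 CPM at day 7. It did not pass the test at day 0 (-0.27 ± 0.12 SE, adjusted P = 0.11) or day 1 (-0.08 ± 0.11 SE, adjusted P = 0.613). It is encoded on the opposite strand to mt-Nd5, which overlaps it, and 5 of 9 measured mitochondrially encoded genes had a day 7 ratio of 1.25 or more. The 9 genes summed to 55283.5 to 58343.1 CPM in vehicle-treated and 66420 to 79393.7 CPM in C70-treated cells at day 7, without overlap. At days 0, 1 and 2 the sums of the groups overlapped. These transcripts were listed as a possible sign of RNA quality, but in vehicle-treated cells the sum also changed with the day, from 28388 to 30142.3 CPM at day 0. Their part in the result was not tested.

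Several genes rest on few reads, on copies or on single libraries. Gm21887, a coding gene model, had 2.05, 2.31 and 14.3 CPM in the vehicle libraries at day 2, and replicate 3 stood far above the others. Without that library its log2 fold change at day 2 was 0.50, the opposite direction. Gm1821, a transcribed pseudogene, had 13.5, 5.05 and 5.5 CPM in the vehicle libraries at day 2, and without replicate 1 its log2 fold change there was 0.09. Gm9347, a processed pseudogene, had 2.18, 3.66 and 3.15 against 2.4, 2.02, 2.33 and 2.09 CPM at day 2, overlapping. Gm9828, a noncoding RNA opposite to Btf3, rose at day 0 (0.62 ± 0.17 SE, adjusted P = 0.00933), though not without vehicle replicate 2 (adjusted P = 0.0826). Gm38357, which lies within Noct on the same strand, and Afmid, an enzyme of tryptophan breakdown that overlaps Tk1 on the opposite strand, had no call at day 0 or 1. Of the 78 genes, 34 overlap a gene on the opposite strand and 23 a gene on the same strand. Libraries were made with a strand-specific kit, but the use of strand in counting is not given in the sources used here, so reads of such pairs may be shared. Ccdc15, a coiled-coil protein, and BC030867, a coding gene without a name, fell at day 1, with -0.79 ± 0.14 (SE, adjusted P = 4.29e-05) and -0.67 ± 0.13 (SE, adjusted P = 1.02e-04). Haus3, of the augmin complex that seeds spindle microtubules, also fell at day 1 (-0.34 ± 0.09 SE, adjusted P = 0.00334), short of the fold limit without C70 replicate 2 or 4 (log2 fold changes between -0.32 and -0.29).

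Further genes of the set, which fall outside the fixed rule, had day 2 ratios between 0.508 and 0.783 and day 7 ratios between 1.27 and 2.02. They include the cohesin acetyltransferase Esco2, the kinesin Kif18a, the kinetochore proteins Cenph, Nsl1 and Spdl1, the histone kinase Haspin, the checkpoint kinase Chek1, the helicase Brip1, the formin Diaph3 and Mcph1. Others are Gng2, Strip2, Dynlt1a, Katnal2, Mybl1, Scml2, Mamld1, Zfp825, Slfn9, Osgin1, Macrod2, Gm3325, Gm7901, A930007I19Rik and Gm37310. Of these and Siglec1 and Arhgap19, 9 fell at day 1 (7.8% of all genes).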

How the data were processed

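RNA of 3T3-L1 cells was sequenced with a strand-specific kit in 29 libraries of 8 groups (vehicle or C70, days 0, 1, 2 and 7). The authors deposited whole-number counts per gene in a table whose name calls them normalized; they were treated as raw counts because they are whole and their totals differ between libraries, and any scaling before deposit would change the CPM and edgeR values. Reads were aligned with STAR 2.7.2a to GRCm38 with Ensembl 97 annotation; the submitters' processing notes also name edgeR 3.26.8. The counting program, its use of strand and the filter on genes are not given in the sources used here, and every one of the 11959 genes had over 1 CPM in at least 20 libraries. Totals ran from 16320275 to 24037170 counts per library. Positions are those of GENCODE M21 on GRCm38.

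From the deposited counts, CPM was the count over the library total times 1000000. edgeR 4.0.16 (R 4.3.3) fitted all 8 groups together with TMM scaling, and quasi-likelihood tests were adjusted by Benjamini-Hochberg over 11959 genes. A call needed an adjusted P below 0.05 and a fold change over 1.25. The fits were tested on simulated counts with known changes. Standard errors are the log2 fold change over the square root of F. Alternatives used limma 3.58.1, DESeq2 1.42.0, other scalings, filters, thresholds, a replicate block and each library left out. Replicate numbers did not pair the samples (r over genes between -0.206 and 0.215 for same-numbered libraries of a day).

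The genes and gene lists were chosen with earlier results of these data known, and functions were assigned after the values were seen. Genes given with values were the 12 with the largest difference between the log2 ratios of day 7 and day 2, the 8 of highest mean CPM, the 5 largest called rises and falls at day 0, at day 1 and in vehicle-treated cells from day 0 to day 1, every gene in a gene list, and the 3 on each side of each limit. One gene of these lists is not reported here. The ratios of days 2 and 7 chose the genes, so no test is read there; days 0 and 1 entered the choice only through the mean CPM.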

Additional observations from a re-analysis of the deposited data

Results flagged for a closer look

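Among 260 groups of 4 libraries examined for named genes of the set, 16 held a library set apart from the others by Dixon's criterion, and chance flags about 1 in 20 groups, or 13. At day 7 in vehicle-treated cells these were Depdc1a in replicate 4 (0.0522 CPM, others at 0), Bub1 in replicate 1 (0 CPM), Cdca5 in replicate 3 (0.280 CPM), Sept6 in replicate 2 (74.5 CPM), Aqp11 in replicate 3 (9.24 CPM), Gm9347 in replicate 1 (6.82 CPM) and Cit in replicate 3 (0.420 CPM). In C70-treated cells at day 7 they were Fam83d in replicate 4 (0.336 CPM), Fanca in replicate 2 (0.744 CPM), Slc7a11 in replicate 4 (1.87 CPM) and Ralgps2 in replicate 4 (5.23 CPM). At earlier days in C70-treated cells they were Pif1 in replicate 3 (4.33 CPM) and Cit in replicate 1 (19.2 CPM) at day 0, Cdca5 in replicate 3 (6.09 CPM) and Nr4a2 in replicate 1 (2.75 CPM) at day 1, and Rftn2 in replicate 2 (8.48 CPM) at day 2.

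The C70 effect differed between day 0 and day 1 by the interaction term of edgeR in 13 named genes. On the log2 scale the effect at day 1 minus that at day 0 was -0.42 in Bub1 (adjusted P = 0.0161), -0.63 in Birc5 (0.00409), -0.44 in Cdk1 (0.0136), -0.39 in Dlgap5 (0.0236), -0.47 in Pbk (0.0372) and -0.68 in Sass6 (0.0273). It was -0.75 in Fanca (adjusted P = 0.00175), -0.36 in Pole (0.0208), -0.65 in BC030867 (0.00843) and -0.97 in Ccdc15 (0.00209). In Acly it was -0.41 (adjusted P = 0.0188) and in Lef1 -0.45 (0.000163). Stc1 went the other way, at 1.15 (adjusted P = 0.00814). Leaving out single libraries of days 0 and 1 ended the call in Bub1 (vehicle replicate 1 of day 0, adjusted P = 0.0585), Cdk1 (vehicle replicate 3 of day 1, 0.0507) and Acly (vehicle replicate 2 of day 1, 0.0529). It also did so in Sass6 (6 libraries, adjusted P 0.0577 to 0.103), Dlgap5 (7 libraries, 0.0506 to 0.0845), Pbk (10 libraries, 0.053 to 0.146) and Pole (4 libraries, 0.0518 to 0.0875).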

How the results depend on the processing

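Counts of the 78 genes called moved with the fold limit and with the genes tested. With no fold limit 11 genes were lower at day 0, and with a limit of 1.5-fold 2 were, with 10 lower at day 1, 5 lower in the change of the effect, and 10 and 7 higher from day 0 to day 1 in vehicle-treated and C70-treated cells. Quantile normalization with limma gave 2 higher at day 1 and 0 higher in the change of the effect, where DESeq2 gave 1. Without the 25% of genes of lowest mean CPM, which hold 54 of the 78 genes, the 24 left gave 2 higher and 1 lower at day 0, 1 and 10 at day 1, 0 and 7 in the change, 6 and 8 in vehicle-treated cells and 2 and 10 in C70-treated cells; fewer genes were tested. The 53 genes at 1 CPM or more at day 7, an alternative chosen after seeing the data, gave 13 lower at day 1, 5 lower in the change and 10 higher in vehicle-treated cells. The set itself held 123 genes with DESeq2 size factors, 115 with TMM, 36 with limits of 0.75 and 4/3, 165 with 0.85 and 20/17, 41 with a mean CPM of 5, and 27 with libraries apart at both days (chosen after seeing the data).

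Leaving out each library gave 5 to 6 higher and 4 to 8 lower at day 0, 3 to 5 and 22 to 33 at day 1, 1 to 4 and 7 to 14 in the change (7 without vehicle replicate 2 of day 1, 4 higher without vehicle replicate 1 of day 7), 14 to 20 and 26 to 29 in vehicle-treated cells, 8 to 11 and 30 to 32 in C70-treated cells, and 74 to 95 genes in the set, of which 62 to 78 were among the 78 (62 of 77, with 15 gained and 16 lost, without C70 replicate 1 of day 7). With a replicate block over all days, day 0 had 6 higher and 6 lower, and day 1 had 31 lower; with the block within a day, 6 higher and 8 lower at day 0 and 5 and 25 at day 1. Replicate numbers do not pair these samples. Signs turned when a library was left out for Gm21887 at day 2 (-1.37 to 0.50, the latter without vehicle replicate 3), Gm1821 at day 2 (-0.80 to 0.0899, the latter without vehicle replicate 1) and Pif1 at day 7 (-0.13 to 1.66, the former without C70 replicate 2), and under quantile normalization at day 7 for Dlgap5 (-0.17), Melk (-0.0579), Pbk (-0.0358) and Cit (-0.00132). The cause was not tested. Of 111 called values of named genes, 85 were called in every fit that left out a library. Depth limits the day 7 values of the genes under 1 CPM.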
